A study of Homo sapiens with 12 samples.

Results

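Metallothioneins and 2 genes that act with them in the handling of zinc were followed through 6 groups of the human colorectal carcinoma line HCT116. The 10 genes were taken by symbol from a list: the metallothioneins MT2A, MT1E, MT1X, MT1F, MT1G, MT1M, MT1H and MT1A, the transcription factor MTF1 and the zinc transporter SLC30A1. All 10 were found among the 26372 gene symbols of each table. The list was chosen by symbol with the FPKM values of these 6 tables known, so their levels and differences are given as a description, with no test. Polyadenylated RNA was sequenced from wild-type cells (WT) and from cells with a knockout (KO) of KDM3A, a histone demethylase. Each genotype was sampled in normal medium (mock), in medium without serum (starved), and after fetal bovine serum was added back to cells kept 24 h without it (refed). The time from serum addition to harvest, the length of starvation in the starved groups and the number of knockout clones are not given in the sources used here. There are 12 labelled samples, 2 per group, but 1 column of values per group was used, and its name gives the group and no sample. Each group is therefore 1 value, no spread between replicates can be given, and no difference below has a replicate check.

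Metallothioneins are small proteins whose many cysteines bind zinc and copper. They buffer zinc inside the cell and bind toxic metals such as cadmium. MTF1 is a zinc finger protein that senses free zinc: when zinc is plentiful it binds metal response elements near the start of metallothionein genes and of SLC30A1 and raises their transcription. SLC30A1 (also called ZnT1) exports zinc across the plasma membrane. Glucocorticoids also induce some metallothionein genes.

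The 8 metallothionein genes lie side by side on chromosome 16 in the RefSeq gene table of build GRCh38.p14, in the order MT2A, MT1E, MT1M, MT1A, MT1F, MT1G, MT1H and MT1X, and MTF1 and SLC30A1 are on chromosome 1. The stretch from MT2A to MT1X holds 15 annotated genes. A RefSeq promoter window, from 250 bases before the transcription start to 50 after it, was found for 5 of the 10 members: MT2A, MT1X, MT1H, SLC30A1 and MTF1. The core of the metal response element was searched as TGCACNC and TGCGCNC on both strands. The first 4 windows are printed 5′ to 3′ on the gene's strand, because they belong to 2 genes with high levels, a member almost without transcript and the exporter. Capitals mark each match, and a match on the opposite strand appears as its reverse complement. The windows are, in build GRCh38.p14, chr16:56608334-56608633 (plus strand) for MT2A, chr16:56682220-56682519 (plus) for MT1X, chr16:56669564-56669863 (plus) for MT1H and chr1:211579112-211579411 (minus) for SLC30A1.
MT2A: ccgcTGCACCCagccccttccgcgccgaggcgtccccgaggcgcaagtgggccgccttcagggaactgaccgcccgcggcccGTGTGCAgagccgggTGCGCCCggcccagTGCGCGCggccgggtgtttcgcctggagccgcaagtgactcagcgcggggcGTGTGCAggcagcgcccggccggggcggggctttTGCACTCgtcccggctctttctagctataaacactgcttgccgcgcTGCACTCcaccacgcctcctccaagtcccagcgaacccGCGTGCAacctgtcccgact
MT1X: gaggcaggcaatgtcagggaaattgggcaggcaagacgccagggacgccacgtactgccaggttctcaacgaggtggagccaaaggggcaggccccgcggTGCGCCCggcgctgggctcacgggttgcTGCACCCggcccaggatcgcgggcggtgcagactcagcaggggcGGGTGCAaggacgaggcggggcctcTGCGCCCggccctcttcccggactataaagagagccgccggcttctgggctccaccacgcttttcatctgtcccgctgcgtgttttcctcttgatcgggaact
MT1H: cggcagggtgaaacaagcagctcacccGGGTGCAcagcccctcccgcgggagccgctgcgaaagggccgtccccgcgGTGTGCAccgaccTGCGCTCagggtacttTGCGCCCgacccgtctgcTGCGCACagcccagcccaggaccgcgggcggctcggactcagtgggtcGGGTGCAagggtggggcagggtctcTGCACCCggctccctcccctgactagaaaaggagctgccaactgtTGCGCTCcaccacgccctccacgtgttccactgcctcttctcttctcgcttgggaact
SLC30A1: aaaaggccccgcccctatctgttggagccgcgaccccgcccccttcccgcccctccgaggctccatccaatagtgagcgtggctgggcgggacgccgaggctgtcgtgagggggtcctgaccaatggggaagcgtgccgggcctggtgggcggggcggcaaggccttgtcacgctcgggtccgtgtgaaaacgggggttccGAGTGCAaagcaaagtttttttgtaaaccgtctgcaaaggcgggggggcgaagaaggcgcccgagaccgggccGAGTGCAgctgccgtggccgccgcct

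MT2A held 8 matches, 5 on its own strand and 3 on the other. MT1H also held 8, MT1X held 4, SLC30A1 held 2 and the window of MTF1 held 0. Of all 35116 promoter windows of this length in the table, 29.6% held at least 1 match and 8.60% at least 2. At least 4 were held by 0.601% and at least 8 by 0.0199%. These windows are rich in G and C, from 67.0% in MT1X to 72.0% in MT2A. Among the 16447 windows with at least 60% G and C, 43.9% held a match, 4.32% held at least 3 and 0.328% held at least 5. MT1H thus held as many matches as MT2A, and its transcript was at 0.0509 FPKM or less.

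**Figure D1:**
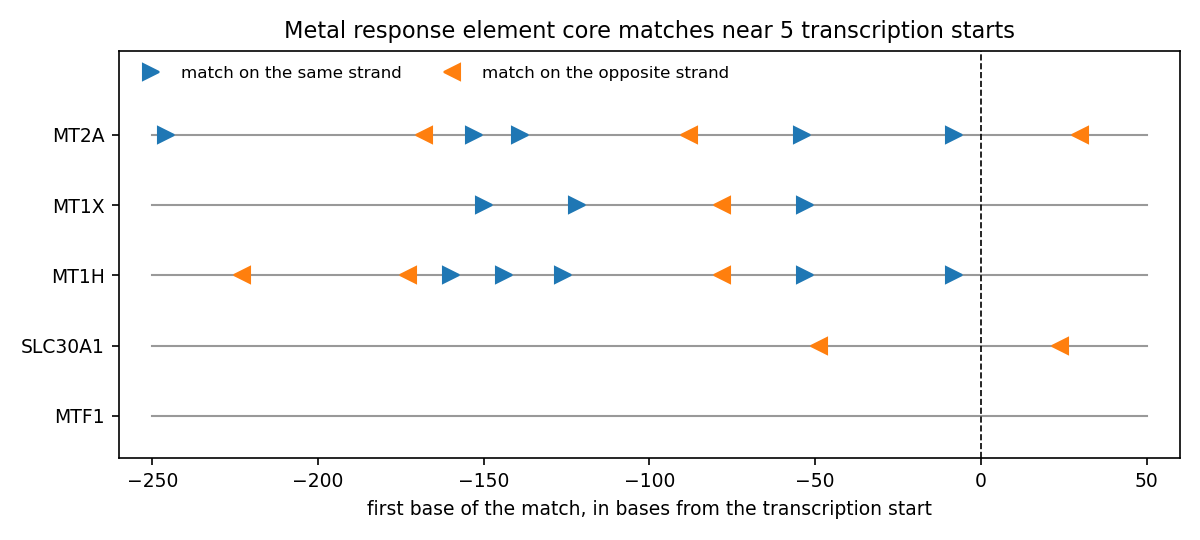
Position of each metal response element core match (horizontal axis, bases from the transcription start) in the promoter windows of 5 members; arrowheads point right for the gene's own strand and left for the opposite strand. MT2A and MT1H hold 8 matches each, MT1X 4, SLC30A1 2 and MTF1 0.

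Metallothioneins are close paralogs, and how the authors' counting shared out reads that fit several genes is not given in the sources used here. Every window of 50 bases in the coding transcripts of each member (GENCODE 29) was looked up in the transcripts of all other genes. Shared windows made up 3.27% of MT1F, 4.24% of MT2A, 7.10% of MT1E and 43.6% of MT1X. Most of the overlap of MT1X was with AC026461.1, a transcript annotated over the same locus and strand, which shared 35.3% of its windows. The largest overlap of MT1X with another member was 6.08%, with MT1G. At 100 bases MT2A, MT1E, MT1F, MT1G, MT1M and MT1A shared no window with any other gene, MT1X shared 30.8%, with AC026461.1, and MT1H shared 1.39%. SLC30A1 shared none at either length. Among the expressed members MT1X thus shared the most, mainly with a transcript of its own locus that is not among the gene symbols with values here. How far such sharing affects the value of MT1X was not tested, and the read length is not given in the sources used here.

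In all 6 groups MT2A and MT1E made up most metallothionein RNA, and 4 of the 8 metallothioneins were close to silent. Levels are in FPKM (fragments scaled by transcript length and by the number of mapped fragments). The transcript lengths used are not given in the sources used here, so levels of different genes can be compared only roughly. In WT cells MT2A stood at 1309 FPKM (mock), 1361 (starved) and 1514 (refed), and in KO cells at 1096, 896 and 1956 FPKM. It was among the 102 most abundant of all symbols in each group, at rank 63 in WT refed and rank 102 in KO starved. On the deposited scale KO refed was the highest of the 6 groups and KO starved the lowest. After rescaling to equal sums of FPKM without short RNA, KO refed stood slightly below WT refed (log2 ratio -0.05).

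MT1E, the second of the family by level, stood at 225, 427 and 439.6 FPKM in WT cells (mock, starved, refed) and at 287, 341 and 841 FPKM in KO cells. WT mock was the lowest group and KO refed the highest, at 1.91 times the next. MT1X stood at 154, 77.9 and 67.6 FPKM in the WT groups and at 72.8, 38.6 and 121 FPKM in the KO groups. Unlike the 2 more abundant genes, MT1X was highest in WT mock, with KO refed next. MT1F had 17.6, 12.1 and 9.64 FPKM in the WT groups and 14.8, 10.8 and 17.8 FPKM in the KO groups, a range of 1.85-fold over the groups.

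SLC30A1, the exporter, stood at 5.29, 5.13 and 8.0 FPKM in the WT groups and at 8.94, 7.93 and 30.5 FPKM in the KO groups. KO refed stood far above the other 5 groups, and SLC30A1 had the widest range of the 6 measured members, 5.94-fold. MTF1, the sensor, was low throughout, with 2.0, 1.33 and 2.44 FPKM in the WT groups and 2.44, 1.76 and 2.54 FPKM in the KO groups. Starved cells had the lowest MTF1 value in both genotypes. By their mean over groups the order was MT2A, MT1E, MT1X, MT1F, SLC30A1 and MTF1. The ranges over groups of MT2A, MT1E, MT1X and MT1F did not overlap with one another. The ranges of MT1F (9.64 to 17.8 FPKM) and SLC30A1 (5.13 to 30.5 FPKM) did.

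**Figure D2:**
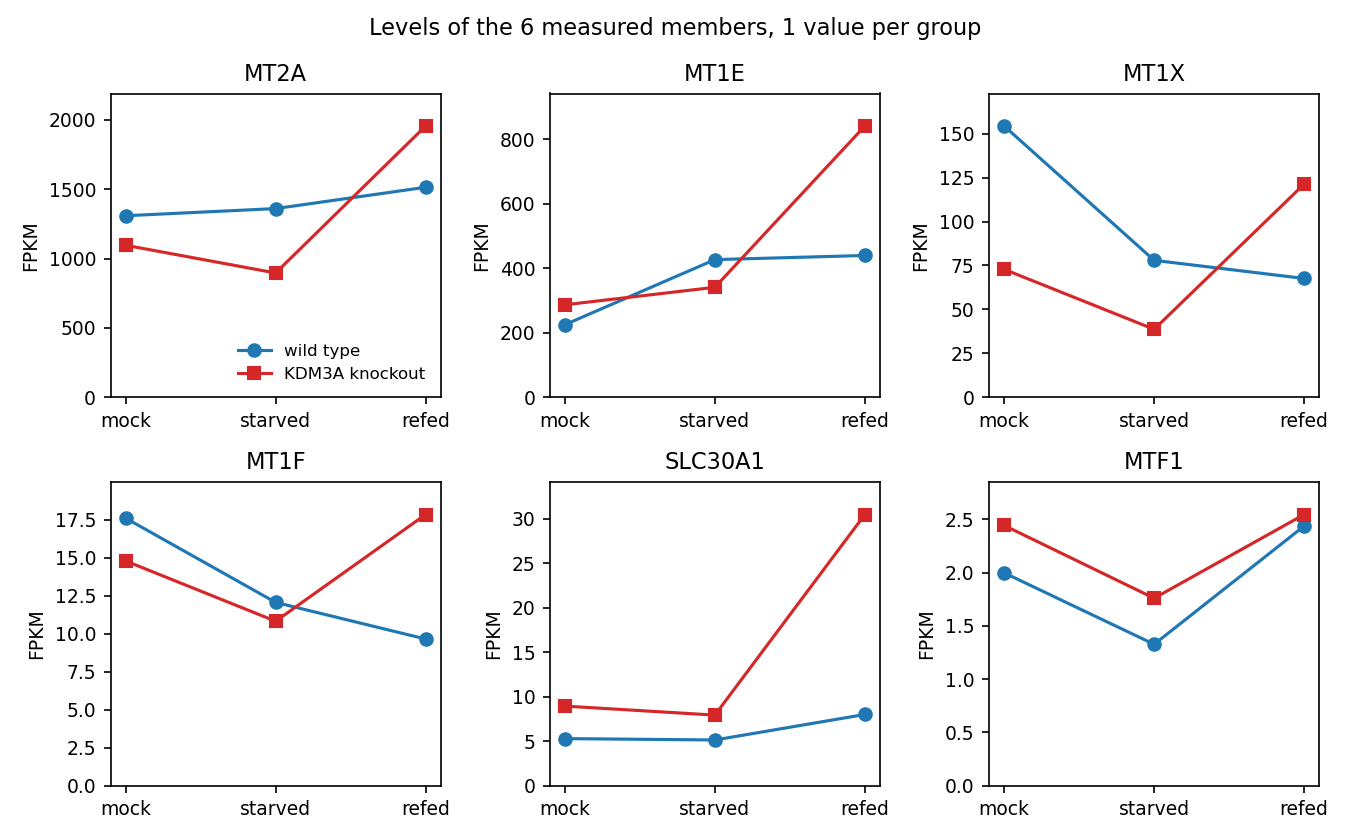
FPKM (vertical axes, each from 0) of the 6 measured members in mock, starved and refed cells; blue circles are wild type and red squares KDM3A knockout, 1 value per group, joined by lines to guide the eye. In KO refed SLC30A1 reached 30.5 FPKM against 8.94 or less elsewhere, and MT1E 841 against 439.6 or less.

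The other 4 metallothioneins stayed below 1 FPKM in every group and did not pass the filter for comparisons, which asked for 1 FPKM or more in at least 1 group. MT1G ranged from 0.0500 FPKM in KO mock to 0.345 in WT refed. MT1H was listed at 0 in 3 groups and at 0.0509 FPKM or less in the others. MT1M was at 0.0352 FPKM in WT mock and listed at 0 in the other 5 groups, and MT1A was listed at 0 in all 6. In the rest of the family, 8 of 11 further genes and pseudogenes were in the tables and 2 reached 1 FPKM, named here after their values were seen. These were the pseudogenes MT1DP, at 1.75 to 3.72 FPKM, and MT1L, at 1.41 FPKM in WT mock and 0.144 or less elsewhere.

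As a sum, the 8 metallothioneins stood at 1706, 1878 and 2031 FPKM in the WT groups (mock, starved, refed) and at 1470, 1287 and 2937 FPKM in the KO groups. KO refed held the highest sum and KO starved the lowest. MT2A supplied between 66.6% of the sum (KO refed) and 76.7% (WT mock). The share of MT1E was 13.2%, 22.7% and 21.6% in the WT groups (mock, starved, refed) and 19.5%, 26.5% and 28.6% in the KO groups. The share of MT1X was 9.05% in WT mock and 3.0% to 4.95% in the other 5 groups. The level of MT1E was 1.46, 5.48 and 6.50 times that of MT1X in the WT groups (mock, starved, refed) and 3.94, 8.82 and 6.94 times in the KO groups. These shares and quotients do not depend on how the groups are scaled.

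**Figure D3:**
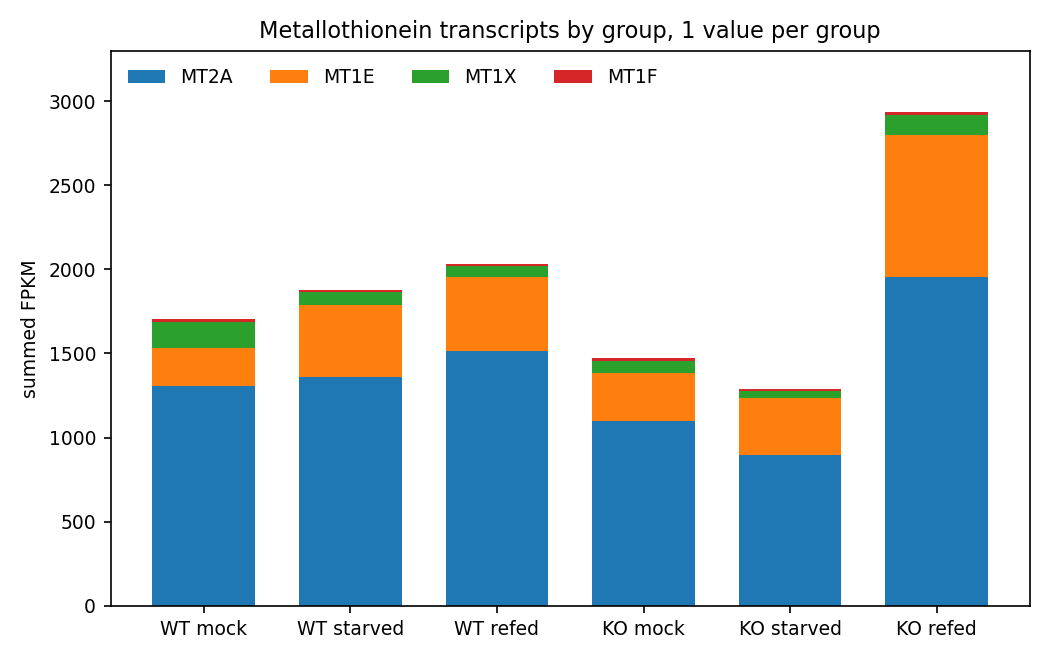
Summed FPKM (vertical axis) of MT2A, MT1E, MT1X and MT1F, stacked, in the 6 groups, 1 value per group. The bars are lowest in KO starved and highest in KO refed, and the MT1X part is thickest in WT mock, where it was 9.05% of the family's sum.

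Across the series, 13456 features reached 1 FPKM in at least 1 group. KDM3A ranged from 17.8 to 41.3 FPKM in the WT groups and from 3.01 to 3.59 FPKM in the KO groups, which goes with the labels. Of 8 markers of colorectal epithelium, 5 or 6 were at 1 FPKM or more in each group, with KRT8 the highest, while VIL1 and CDH17 were at or near 0. KRT8 and KRT18 were at least 2-fold higher in KO in all 3 states. The summed level of the 8 markers was 1580 to 1810 FPKM over the WT groups and 3473 to 4198 FPKM over the KO groups. These 2 keratins made up most of it, and no other of the 6 measured markers was past 2-fold. CDH1 had log2 ratios of (FPKM + 1) of 0.56 to 0.73, EPCAM 0.21 to 0.33, CDX2 -0.07 to 0.18 and KRT20 -0.68 to -0.24. CD68 was also at least 2-fold higher in KO in each state, with 17.1 to 32.9 FPKM there against 4.30 to 12.2 FPKM. These shifts go with every comparison of KO with WT below, and their part in those was not tested. Short RNA features (such as small nucleolar RNA and microRNA genes) held 54.6% of the summed FPKM in WT mock and 5.69% to 16.6% in the other groups. The read depth is unknown, and genes listed at 0 numbered 4300 and 4301 in starved and refed WT cells and 6401 to 7312 in the other 4 groups. In WT mock, 14 of 16 endothelial markers reached 1 FPKM and exceeded each of the other groups at least 2-fold. Their summed level was 296 FPKM there and 49.0 to 90.2 in the other groups, where EGFL7 made up most of it. CDH5, TEK, ERG and EMCN were listed at 0 in KO mock. Fibroblast markers summed to 18.8 to 50.8 FPKM, nearly all of it COL1A1, and the other 7 were under 1 FPKM in each group. The leukocyte markers other than CD68 were each under 0.1 FPKM. Differences below are log2 ratios of (FPKM + 1), which understate the changes of low genes such as MTF1, and a member is counted when it differed at least 2-fold on that scale.

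Serum re-addition was compared with starvation to see how the members responded to serum in each genotype. In KO cells 4 of the 6 measured members were at least 2-fold higher after serum, MT2A, MT1E, MT1X and SLC30A1, and 0 were lower, where 1.98% of all features were higher and 0.446% lower. In WT cells 0 of 6 were higher and 0 lower at 2-fold, where 1.69% and 0.684% of all features were. The zinc exporter and 3 of the 4 measured metallothioneins were thus past 2-fold in refed KO cells, from 896 to 1956 FPKM for MT2A and from 7.93 to 30.5 for SLC30A1. The median over the 6 members was 1.21 in KO and 0.10 in WT, and over all features 0.01 and -0.03.

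The log2 ratio of SLC30A1 after serum was 1.82 in KO, and 0.736% of features had a larger one. In WT it was 0.55. MT1X had 1.63 in KO and -0.20 in WT, so that it was higher after serum in KO and slightly lower in WT. For MT1E the ratios were 1.30 in KO and 0.04 in WT, and for MT2A 1.13 and 0.15. MT1F, below 2-fold in both, had 0.67 and -0.29. MTF1 went the other way about, with 0.36 in KO and 0.56 in WT.

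The response of KO less that of WT was 1.83 on the log2 scale for MT1X, 1.26 for SLC30A1, 1.26 for MT1E and 0.97 for both MT2A and MT1F. Of all features, between 0.639% (MT1X) and 1.25% (MT1F) had a larger difference than these 5. For MTF1 it was -0.20. These differences of responses have no test, since each rests on 4 single values, and in KO all 5 are set against the starved group, in which the metallothionein sum was the lowest of all groups. Set against mock in place of starved cells, refed KO cells had log2 ratios of 1.66 for SLC30A1, 1.55 for MT1E, 0.84 for MT2A, 0.73 for MT1X and 0.26 for MT1F. In WT the same ratios were 0.52, 0.96, 0.21, -1.18 and -0.80, so that MT1X was past 2-fold lower. KO less WT then came to 0.59 for MT1E and 0.63 for MT2A, below their differences over starved cells, and to 1.15 for SLC30A1, 1.06 for MT1F and 1.91 for MT1X. These ratios rest in WT on the mock group, whose endothelial markers and short RNA stand apart.

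**Figure D4:**
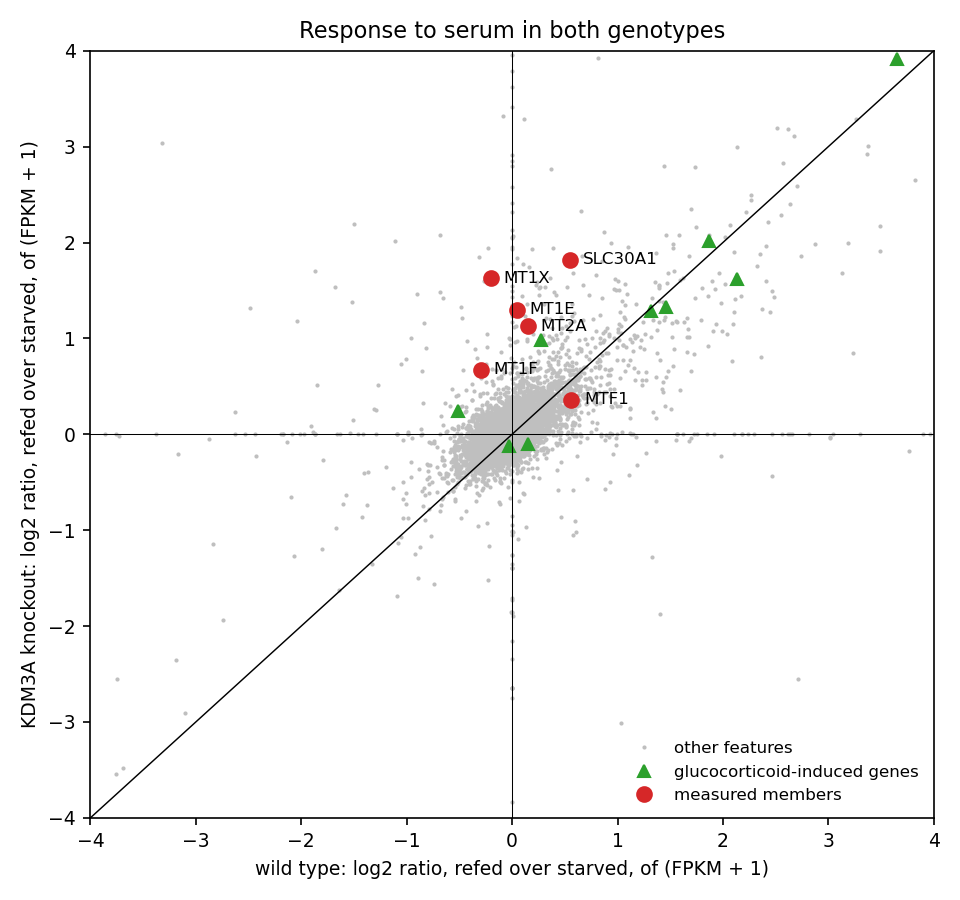
Log2 ratio of (FPKM + 1), refed over starved, in wild type (horizontal axis) and in KDM3A knockout (vertical axis) for all features measured (grey; 54 lie outside the axes), glucocorticoid-induced genes (green triangles) and the 6 measured members (red circles, named); the diagonal marks equal responses. All members but MTF1 lie above the diagonal, with MT1X at -0.20 and 1.63 and SLC30A1 at 0.55 and 1.82.

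A list of 10 glucocorticoid-induced genes was also followed after serum, for comparison. Of the 9 measured, 5 were at least 2-fold higher after serum in WT and 5 in KO, and 0 were lower in either, beside 1.69% and 1.98% of all features higher and 0.684% and 0.446% lower. Their median was 1.32 in WT and 1.29 in KO. In each genotype 7 of the 9 had a ratio above 0 and 2 below it, beside 41.1% and 52.2% of all features above 0. FKBP5 had -0.03 in WT and -0.12 in KO, KLF9 0.15 and -0.10, and NFKBIA -0.51 and 0.24. DUSP1, a phosphatase of MAP kinases, went from 5.24 to 77.1 FPKM in WT and from 6.70 to 115 in KO. PER1, a clock gene, went from 9.23 to 44.0 FPKM in WT, and CEBPD, a transcription factor, from 5.93 to 27.0 in KO. The glucocorticoid receptor gene NR3C1 had 1.54 and 1.51 FPKM in starved and refed WT cells, and 2.11 and 1.83 FPKM in KO cells. Several of these genes also respond to growth factors in serum.

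Among genes that metals and oxidants induce, 9 of 9 were measured and 1 was 2-fold higher after serum in each genotype (against the same 1.69% and 1.98% of all features), the co-chaperone DNAJB1 (WT, 44.7 to 103 FPKM, and KO, 51.1 to 105 FPKM). HSPA1B, a heat shock protein gene with a near-identical copy and so uncertain, had log2 ratios of 0.44 and 0.53 in WT and KO. Of 9 further zinc exporters of the SLC30 family 5 were measured, and 0 were 2-fold higher or lower in any of the 7 comparisons. After serum their median was 0.06 in WT and -0.06 in KO, and SLC30A5, which loads zinc into the secretory pathway, had 0.11 in WT.

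The effect of taking serum away was read from starved against mock cells. At 2-fold, 0 of the 6 members were higher and 0 lower in WT (1.03% and 3.91% of all features were, or 1.59% and 2.86% after median-ratio rescaling), and 0 and 0 in KO (0.951% and 1.18%). MT1X was nearest to 2-fold lower in WT, at -0.98. MT1E was nearest to 2-fold higher in WT, with a log2 ratio of 0.92 against a median of -0.19 for all features. It became 1.15 after median-ratio rescaling, 1.13 after upper-quartile rescaling and 1.10 after rescaling to equal sums, past 2-fold. In KO the ratio of MT1E was 0.25.

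MT1X went the opposite way to MT1E, with -0.98 in WT and -0.90 in KO. On the deposited scale starved cells thus had close to 50.5% and 53.1% of its mock level. MT1F was also lower, by ratios of -0.51 and -0.42. MT2A had 0.06 in WT and -0.29 in KO. After median-ratio rescaling the WT ratios of MT1X, MT1F and MT2A were -0.75, -0.30 and 0.28, and after equal-sum rescaling -0.80, -0.34 and 0.24. MTF1 had -0.37 and -0.32, and SLC30A1 -0.04 and -0.15, the first of which turned to 0.15 after median-ratio, 0.14 after upper-quartile and 0.12 after equal-sum rescaling. The WT values are set against WT mock, where endothelial markers summed to 296 FPKM against 57.5 in WT starved, and the part of those transcripts in the WT ratios was not tested. In KO the endothelial sum was 90.2 FPKM in mock and 68.8 in starved cells, and 14 of 16 markers were under 1 FPKM in both.

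The other zinc genes had modest differences in starved cells. Of 14 importers of the SLC39 family 11 were measured, and 0 were 2-fold higher or lower in WT or KO. In WT 10 of the 11 had a ratio below 0, as did 70.1% of all features, with a median of -0.22 beside -0.19 for all features. After median-ratio rescaling the count in WT was 6 of 11, beside 49.5% of all features. In KO 7 of 11 were below 0, near the 57.2% of all features, with a median of -0.16 beside -0.06. SLC39A10, a plasma membrane importer, went from 8.96 to 4.25 FPKM in WT (log2 ratio -0.92) and from 11.5 to 8.42 in KO (-0.41). Of 10 copper handling genes, all measured, COX17 was only just past 2-fold lower in WT on the deposited scale (151 to 74.9 FPKM). At 2-fold 3.91% of all features were lower there, or 2.86% after median-ratio rescaling. Whether COX17 stays past 2-fold after rescaling was not tested, nor was the part of the endothelial transcripts of WT mock. COX17 is a chaperone that brings copper to cytochrome oxidase. It went from 172 to 112 FPKM in KO. Among the genes that metals and oxidants induce, TXNRD1, thioredoxin reductase, had a log2 ratio of -1.0 in WT, just short of 2-fold, and NQO1, a quinone reductase, -0.64 in WT and -0.60 in KO.

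KO and WT cells were then set against each other in each culture state, to describe the members when KDM3A is lost. In refed cells SLC30A1 was the 1 member at least 2-fold higher in KO (30.5 against 8.0 FPKM, log2 ratio 1.81) and 0 were lower, where 3.41% of all features were higher and 1.51% lower (2.30% and 2.09% after median-ratio rescaling). Of all features 0.877% had a larger ratio than SLC30A1, which had 1.55 after median-ratio and 1.42 after equal-sum rescaling. MT1E, MT1X and MT1F had 0.93, 0.83 and 0.82 on the deposited scale, 0.66, 0.56 and 0.57 after median-ratio and 0.52, 0.42 and 0.44 after equal-sum rescaling, and MT2A had 0.37. The median over the 6 members was 0.83 beside 0.22 for all features. Here the direction of MT2A turned to -0.05 after rescaling to equal sums, and that of MTF1 (0.04) to -0.15 after median-ratio, -0.18 after upper-quartile and -0.25 after equal-sum rescaling.

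In mock culture MT1X was the 1 member 2-fold lower in KO (72.8 against 154 FPKM, log2 ratio -1.07) and 0 were higher, where 3.22% and 2.27% of all features were. SLC30A1 had 0.66, MT1E 0.35 and MTF1 0.20, while MT2A and MT1F had -0.26 and -0.24. WT mock is the group with high endothelial markers and with 54.6% of its summed FPKM in short RNA features, and their part in its MT1X value was not tested. In starved cells the ratio of MT1X was -0.99 (38.6 against 77.9 FPKM).

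In starved cells 0 members were 2-fold higher and 0 lower in KO, where 2.59% and 1.46% of all features were (1.80% and 2.02% after median-ratio rescaling). MT1X, at -0.99, passed 2-fold with a pseudocount of 0.1 (-1.01), and was -1.22 after median-ratio, -1.24 after upper-quartile and -1.32 after equal-sum rescaling. The other measured metallothioneins had ratios below 0 and short of 2-fold, MT2A -0.60, MT1E -0.32 and MT1F -0.14. SLC30A1 and MTF1 had 0.54 and 0.25. On the deposited scale the FPKM of SLC30A1 in KO was 1.69, 1.54 and 3.81 times that in WT in mock, starved and refed cells. After median-ratio rescaling its log2 ratios were 0.59, 0.34 and 1.55, and after equal-sum rescaling 0.56, 0.26 and 1.42. On each of these scales it was past 2-fold in refed cells alone.

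**Figure D5:**
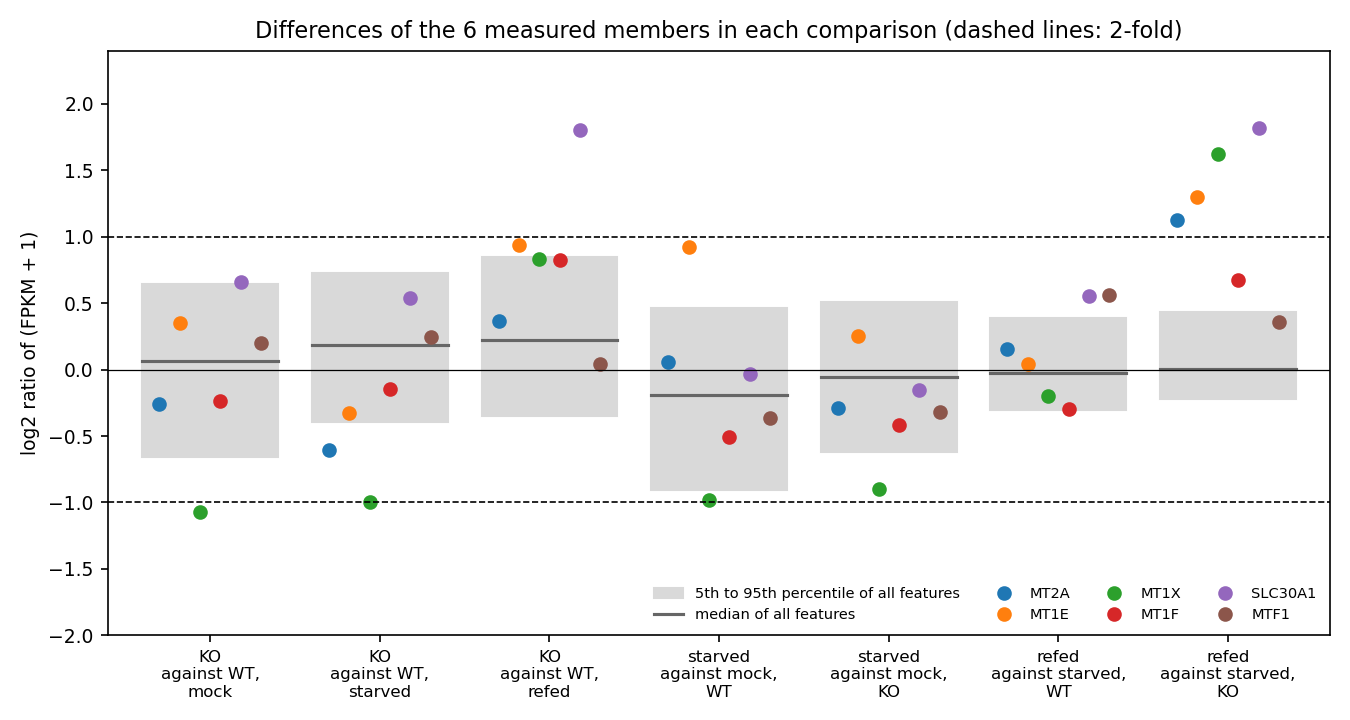
Log2 ratio of (FPKM + 1) (vertical axis) of the 6 measured members in the 7 comparisons (horizontal axis), 1 value against 1; grey boxes span the 5th to 95th percentile of all features, the bar in each is their median, and dashed lines mark 2-fold. In refed against starved KO cells 4 members lie above the upper line, and MT1X lies below the lower line in mock cells at -1.07.

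None of the zinc importers passed 2-fold between the genotypes. Of the 11 measured, 9 had a ratio above 0 in mock, 11 in starved and 11 in refed KO cells, as did 60.1%, 76.9% and 79.8% of all features. After median-ratio rescaling these counts were 9, 8 and 8, beside 50.3%, 49.1% and 49.0% of all features, and after equal-sum rescaling 9, 7 and 5. Their medians were 0.21, 0.33 and 0.38, beside 0.07, 0.19 and 0.22 for all features. SLC39A4, an importer of dietary zinc in the intestine, was at 66.7 against 42.4 FPKM in mock cells and at 80.9 against 50.2 in refed cells. SLC39A10 was at 8.42 FPKM in KO starved and 4.25 in WT starved. The 5 measured SLC30 exporters had medians of 0.30, 0.29 and 0.18 (0.23, 0.09 and -0.07 after median-ratio rescaling), led by SLC30A9 at 23.3 against 17.7 FPKM in mock cells.

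Other metal-linked genes differed between genotypes in both directions. The copper chaperone ATOX1 was lower in KO, at 39.3, 39.2 and 42.2 FPKM against 65.1, 65.3 and 64.5 in WT, which is less than 2-fold in each state. HMOX1, the heme oxygenase that metals and oxidants induce, was 2-fold higher in KO starved (24.3 against 9.45 FPKM) and KO refed (23.5 against 9.09), but not in KO mock (13.6 against 14.8). TXNRD1 was at 125 against 83.8 FPKM in mock cells, 82.8 against 41.5 in starved cells and 92.4 against 55.6 in refed cells. It was short of 2-fold in each state. Of the glucocorticoid-induced genes, ERRFI1, a feedback inhibitor of the EGF receptor, was 2-fold lower in KO starved (59.1 against 177 FPKM) and KO refed (149.5 against 490.4). SGK1, a kinase, was 2-fold lower in KO mock (1.34 against 5.13 FPKM) and KO starved (0.795 against 4.02). In refed KO cells 0 of the 9 measured genes of this list were 2-fold higher and 1 lower, beside 3.41% and 1.51% of all features. Their median was -0.11, with 4 above 0 and 5 below it, beside a median of 0.22 for all features.

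Genes whose pattern over the 6 groups was nearest to that of a member were ranked by the root mean square difference of log2 (FPKM + 1) profiles, each less its own mean, among 9022 features. These were the 9264 that reached 5 FPKM in some group, less 237 short RNA features and 5 members. Nearest to MT2A were GABARAPL1, which acts in autophagosome formation (distance 0.10), PHLDA2 (0.14), C19orf71 (0.16), the oxysterol receptor NR1H2 (0.17) and TNS4 (0.18). GABARAPL1 was at 25.0 FPKM in KO starved and 46.5 in KO refed, its lowest and highest groups, as for MT2A on the deposited scale. Nearest to SLC30A1 were PFKFB2, an enzyme that controls glycolysis, and MAP3K8, a kinase (both 0.25), the small heat shock protein HSPB8 (0.26), the transcriptional inhibitor ID3 and the AP-1 partner JDP2 (both 0.28). All 5 were highest in KO refed, such as ID3 at 467 FPKM against 249.6 in WT refed. Because these genes were picked for their likeness to a member, a shared lowest or highest group goes with that choice. Among the 6 measured members the distances ran from 0.33 (MT1F and MTF1) to 0.91 (MT1X and SLC30A1). The lowest is between 2 genes of small range, as MT1F and MTF1 lay nearer to a flat profile (0.31 and 0.22) than to each other. MT2A likewise lay at 0.35 from a flat profile and at 0.42 from MT1E.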

How the data were processed

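Per the labels, polyadenylated RNA of HCT116 cells was sequenced. Per the submitters' processing notes, cutadapt, TopHat2 and human build hg19 were used, with no versions given. Per the file headers, the authors deposited FPKM values. The program behind them, its annotation and its use of reads that fit several genes are not given in the sources used here. Each table is recorded for replicate 1 of its group, but its column is named for the group alone, and whether it holds that sample, a mean or a pool of both is not given in the sources used here. The FPKM do not state the depth, so no counting interval is given.

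Values were used as deposited. Log2 ratios of (FPKM + 1) were taken for the 13456 features that reached 1 FPKM in some group, in 7 comparisons of 1 value with 1 value, and differences of at least 2-fold were counted. No test was run. The counting and rescaling steps were tested on simulated data. The members and the lists (other metallothioneins, SLC30 exporters, SLC39 importers, copper handling, glucocorticoid-induced, metal and oxidant genes, cell type markers) were chosen with earlier results of these data known. From each list the text names, per comparison, genes among the 2 with the largest ratio at 5 FPKM or more. Values of the same gene in other groups stand beside them. MT1DP, MT1L, NR3C1, FKBP5, KLF9 and NFKBIA are named outside this rule. The 5 nearest patterns were named for MT2A and SLC30A1. Alternatives were a pseudocount of 0.1, 3 rescalings, no filter and a filter of 5 FPKM. RefSeq promoter sequences and gene order (GRCh38.p14) and GENCODE 29 transcripts were used for sequence only, since the build differs from hg19. Python 3.11.15, numpy 2.4.6, pandas 2.3.3 and matplotlib 3.10.9 were used.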

Additional observations from a re-analysis of the deposited data

Results flagged for a closer look

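Opposite directions in the 2 genotypes, each from 1 value against 1, were seen for 3 members, and none of these differences was tested. After serum, MT1X had a log2 ratio of -0.20 in WT and 1.63 in KO, a difference of 1.83. MT1F had -0.29 in WT and 0.67 in KO, a difference of 0.97. After starvation, MT2A had 0.06 in WT and -0.29 in KO, a difference of -0.35.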

How the results depend on the processing

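No paired analysis was possible because each group has 1 value and no result comes from a test. For the same reason no replicate could be left out. Leaving out WT mock removes both comparisons among the 7 that use it. This also removes the WT ratios of refed over mock, and every difference of KO less WT that is set against mock. The 42 log2 ratios of the 6 measured members gave 245 values under 6 alternatives, of which 238 stayed on the same side of 2-fold and 7 passed it. Another 7 changed sign, each below 2-fold. The counts of members past 2-fold were unchanged under the alternatives run, with 2 exceptions. The count lower in KO starved went from 0 to 1 (MT1X) with a pseudocount of 0.1 and with each of the 3 rescalings. The count higher in WT starved against mock went from 0 to 1 (MT1E) with each of the 3 rescalings. The rescaling to equal sums of FPKM without short RNA, and the rescaled counts of zinc importers and exporters, were chosen after seeing the data. The same 4 members were past 2-fold in KO refed against starved under every alternative, SLC30A1 at 1.74 to 1.93, MT1X at 1.55 to 1.65, MT1E at 1.23 to 1.30 and MT2A at 1.05 to 1.13. The median of all features differed between groups on the deposited scale, by 0.19 and 0.22 for KO against WT in starved and refed cells. After median-ratio rescaling the shares of all features higher and lower in KO starved against mock became 1.06% and 0.967%. Depth is unknown, so values of the 4 metallothioneins under 1 FPKM carry little weight.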
